A study of Mus musculus with 2 samples.

Results

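The interferon pathway was examined in sorted pancreatic beta cells through 46 genes of the deposited tables, out of 55487 listed. The genes were chosen by symbol from a fixed list: interferon receptors, JAK kinases, STAT and IRF transcription factors, SOCS inhibitors and antiviral effectors. Guanylate-binding and immunity-related GTPases and MHC genes were outside the list. All 46 symbols were found once in each of the 2 tables.

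Both libraries are described as coming from mutant mice 2 months old, with males and females pooled. The genotype is given as MytF/F; Myt2F/F; Myt3F/F; RipCre, meaning floxed alleles of 3 Myt genes that encode zinc-finger transcription factors. Cre is driven by the rat insulin promoter, so recombination is directed at insulin-producing cells. Islets were dissociated with trypsin, cells were sorted by flow cytometry and total RNA was sequenced. The second library is labelled a duplicate, and the number of mice behind each is not stated. Libraries of control cells were not used here. No value below therefore compares mutant with control, and every p-value compares the reads of these 2 libraries. They differed in sex-linked and acinar transcripts, as given below, and how much of their spread is technical was not tested.

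Interferons are secreted proteins that warn cells of infection. Type I interferons bind the receptor made of Ifnar1 and Ifnar2, and interferon gamma binds Ifngr1 with Ifngr2. Receptor-bound JAK kinases then phosphorylate STAT proteins. STAT complexes that contain Irf9 bind the interferon-stimulated response element (ISRE), and STAT pairs bind the gamma-activated site (GAS) in promoters. The induced genes block viral replication, attract lymphocytes and, through SOCS proteins and Usp18, dampen the signal. Beta cells are known to respond to interferons, and this response has been studied in connection with type 1 diabetes.

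The promoters of the members were searched for these elements, since they are the sequences through which interferon signals are known to act. The table of promoter windows from RefSeq (build GRCm38.p6; 250 bases before to 50 after each start) held 42 windows for 36 of the 46 genes. Windows were not found for Dhx58, Ido1, Mx1, Mx2, Parp14, Parp9, Rtp4, Socs2, Usp18 and Zbp1. Searched on both strands were GAAANNGAA, part of the ISRE core, and TTCNNNGAA, the GAS, where N is any base. Matches of 1 motif may overlap each other or a match of the other. The stretches shown are first those of 6 called genes, each with more than 2-fold higher CPM (reads scaled to the library total) in library 2. Then follow an effector, an activator and an inhibitor that were not called. All were chosen after their values were seen. Each is written 5′ to 3′ on the strand of the gene, with motif matches in capitals.
Ifit3: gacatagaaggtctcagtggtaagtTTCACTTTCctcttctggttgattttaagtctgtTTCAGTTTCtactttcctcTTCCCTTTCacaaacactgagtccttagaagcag
Ifit1: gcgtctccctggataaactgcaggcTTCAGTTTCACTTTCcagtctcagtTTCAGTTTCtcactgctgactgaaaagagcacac
Cxcl10: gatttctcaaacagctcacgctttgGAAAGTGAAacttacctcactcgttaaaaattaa
Rsad2: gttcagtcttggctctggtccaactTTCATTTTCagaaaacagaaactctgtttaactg
Bst2: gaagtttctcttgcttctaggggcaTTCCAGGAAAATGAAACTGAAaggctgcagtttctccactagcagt
Cd274: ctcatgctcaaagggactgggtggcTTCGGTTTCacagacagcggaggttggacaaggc
Isg15: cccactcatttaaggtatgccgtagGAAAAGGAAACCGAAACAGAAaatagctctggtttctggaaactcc
Irf1: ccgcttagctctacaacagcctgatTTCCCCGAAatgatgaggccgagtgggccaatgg
Socs1: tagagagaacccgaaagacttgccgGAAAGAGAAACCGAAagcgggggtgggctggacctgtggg

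On GRCm38.p6 the stretch of Ifit3 lies at chr19:34583349-34583460 (plus strand) and that of Ifit1 at chr19:34640755-34640838 (plus strand). Those of the other 2-fold genes lie at chr5:92349069-92349127 (minus strand) for Cxcl10, chr12:26456538-26456596 (minus strand) for Rsad2, chr8:71537563-71537633 (minus strand) for Bst2 and chr19:29367337-29367395 (plus strand) for Cd274. Isg15 is shown at chr4:156200851-156200921 (minus strand), Irf1 at chr11:53769899-53769957 (plus strand) and Socs1 at chr16:10785580-10785644 (minus strand). Ifit3 and Ifit1 each held 3 ISRE matches, the nearest beginning 102 and 84 bases before the start. In Isg15, 3 matches overlapped in tandem, the first beginning 78 bases before the start. In Bst2 a GAS match ran into 2 ISRE matches, and in Irf1 a single GAS match began 90 bases before the start.

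The libraries were deeply sequenced, with 50121771 counted reads in library 1 and 39003197 in library 2. Over 20681 genes with 10 or more reads summed, the chi-square of their counts was 28.6 per degree of freedom. This is far more than counting error alone gives. The binomial p-values given below measure counting error only, and 32.4% of these genes had an adjusted p under 0.05 in that test. The cells are titled beta cells, with the cell type given as endocrine, and beta-cell markers were high, with Ins2 at 103810 and 110908 CPM (counts scaled to the library total) and Mafa at 810 and 995 CPM. Of 8 such markers 5 were higher in library 2 and 3 lower, among them Slc2a2 at 885 and 632 CPM, and 0 were called. A count of 0 was read as a level of up to 3 reads, a rounded limit equal to 0.0599 and 0.0769 CPM in libraries 1 and 2. Intervals of ratios are exact at 95%, and these intervals and the limit cover counting error only. Library 2 held more of the female-specific Xist RNA (5.01 and 653 CPM, a ratio of 130). It held less of the Y-linked Ddx3y (102 and 64.2 CPM) and Kdm5d (46.4 and 21.4 CPM). The libraries thus differed in sex-linked RNA, although both are described as pools of males and females. Acinar enzyme transcripts, which mark exocrine cells, were also higher in library 2: 10 of 11 markers were over 2-fold higher, the other had no read in either library, and their sum was 116 and 575 CPM.

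Most members were expressed in both libraries. At 1 CPM or more in each, 37 of 46 were detected. In TPM, which scales reads by gene length and so allows levels of different genes to be compared, the median over members was 10.4, with 9.02 in library 1 and 11.6 in library 2. The median over all 20681 genes tested was 5.64 TPM. Of the members, 13 had a mean above 20 TPM. The plot of levels shows signaling genes mostly between 6 and 90 TPM and antiviral effectors mostly lower.

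**Figure D1:**
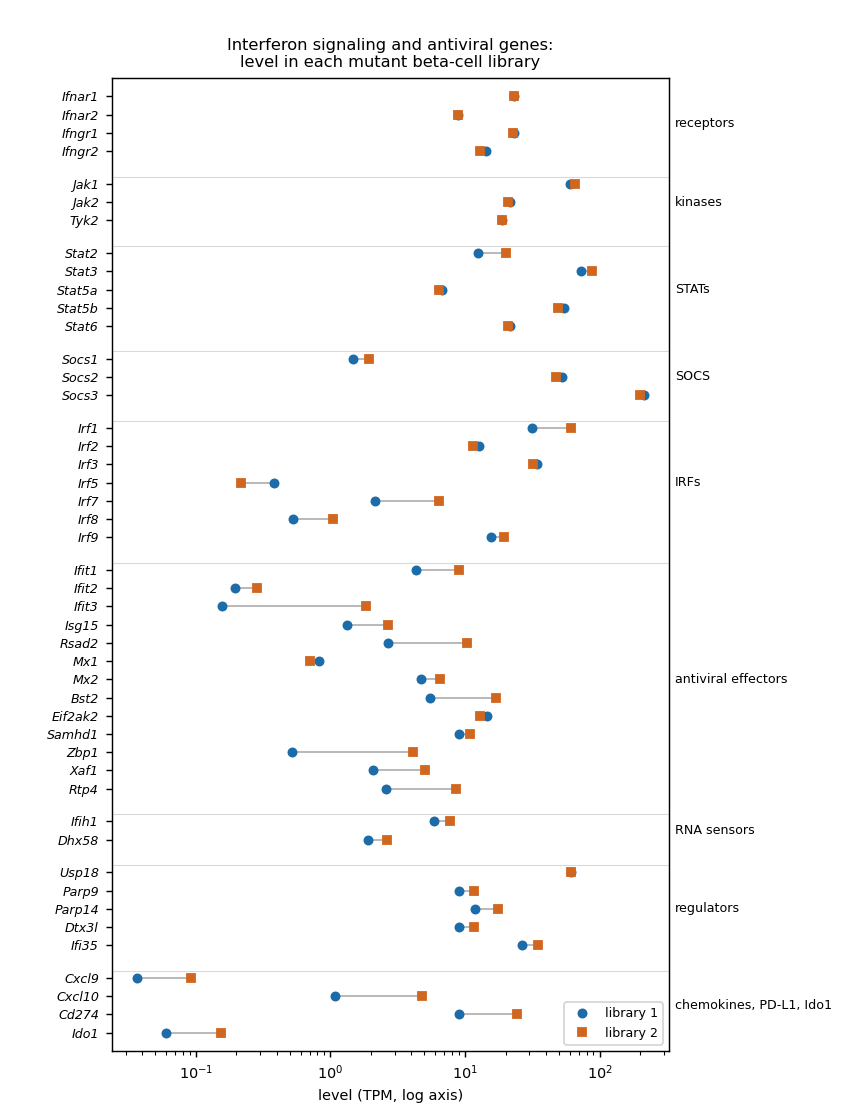
Level of each of the 46 genes in library 1 (circles) and library 2 (squares), in TPM on a log axis, grouped by role; a grey line joins both values of a gene. The values of receptors and kinases lie close together, such as Jak1 at 60.1 and 65.4 TPM, whereas several effectors, among them Ifit3 (0.157 and 1.84 TPM) and Zbp1 (0.514 and 4.09 TPM), lie apart.

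Both interferon receptors were expressed, at nearly equal levels in the libraries. Ifnar1, a signaling chain of the type I receptor, stood at 23.0 TPM in library 1 and 23.2 TPM in library 2. Its partner Ifnar2 stood at 8.93 and 8.91 TPM. Per length, Ifnar1 exceeded Ifnar2 2.58-fold in library 1 and 2.60-fold in library 2. Ifngr1, the ligand-binding chain for interferon gamma, had 23.2 and 22.6 TPM, and its partner Ifngr2 had 14.3 and 13 TPM. None of the 4 receptor chains was called different between libraries, and the widest departure was that of Ifngr2, at 0.918 times its library 1 CPM in library 2 (interval 0.831 to 1.01). Ifnar2, Ifnar1 and Ifngr2 lie in this order on the plus strand of chromosome 16, with gaps of 79.6 kb and 39.6 kb between them. The type III receptor chain Ifnlr1, which is not among the 46, was lower, at 3.79 and 4.54 TPM.

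All 3 kinases were present. Jak1, which serves both interferon receptors, led with 60.1 and 65.4 TPM. Jak2, which pairs with Ifngr2, had 21.7 and 20.7 TPM, and Tyk2, which pairs with Ifnar1, had 19.0 and 18.9 TPM. Jak1 exceeded Jak2 2.76-fold and 3.16-fold within the libraries. Between the libraries the CPM of Jak1 differed 1.10-fold (interval 1.07 to 1.14), and no kinase reached 2-fold.

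Among STAT factors, Stat3, the mediator of interleukin-6 type cytokines, was the highest at 72.3 and 87.3 TPM. Stat5b, which transmits prolactin and growth hormone signals, had 54.6 and 49.5 TPM, and its close relative Stat5a had 6.77 and 6.37 TPM. Stat5b thus exceeded Stat5a 8.07-fold and 7.77-fold, although 11% and 8.52% of the 50-base words of Stat5b and Stat5a occur in other genes, mostly in each other. Stat6, the factor of interleukin-4 signaling, had 21.8 and 20.9 TPM. Stat2, the STAT specific to type I and III interferons, was the STAT member that differed most, with 27.0 and 44.3 CPM in libraries 1 and 2. Its ratio of 1.64 (interval 1.52 to 1.76) passed the exact binomial test (adjusted p = 1.2e-40) and stayed under 2-fold. It did not pass edgeR's exact test, described below (adjusted p = 0.97). Stat3 and Stat5a overlap at their ends on chromosome 11, on opposite strands, within 0.756% of the exonic bases of Stat3.

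The SOCS inhibitors covered a wide range. Socs3, a feedback inhibitor of interleukin-6 type and other cytokine receptors, was the highest of all 46 genes at 213 and 201 TPM, a mean of 207 ± 9.0 TPM (SD, n = 2). Socs2, an inhibitor of growth hormone signaling, had 52.9 and 47.1 TPM. Socs1, the main feedback inhibitor of interferon signaling, had only 1.47 and 1.92 TPM. Socs3 exceeded Socs1 145-fold in library 1 and 105-fold in library 2. In library 2, Socs2 and Socs3 had 0.901 and 0.951 times their library 1 CPM, and Socs1 had 1.32 times, with an interval from 0.953 to 1.82 that spans equality.

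By level, the next genes after Socs3 were Stat3 (79.8 ± 10.6 TPM), Jak1 (62.7 ± 3.79 TPM) and Usp18 (61.1 ± 0.16 TPM; SD, n = 2 for each). Jak1 and Usp18 lay within the spread of the libraries. Stat5b (52.0 ± 3.59 TPM), Socs2 (50.04 ± 4.10 TPM) and Irf1 (46.4 ± 21.1 TPM) followed, and these 3 also lay within their spread. At the low end, Cxcl9 and Ido1 had 2 reads in library 1 and 4 in library 2 each, under the limit for testing.

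The difference between the libraries ran in 1 direction. Of 44 members tested, 10 had at least 2-fold higher CPM in library 2 with an adjusted p under 0.05. At the same limits 0 were lower. The test was an exact two-sided binomial test on raw counts, with Benjamini-Hochberg adjustment over all 20681 genes. Over all genes tested, 4.31% were called in either direction, 1.91% as higher in library 2 and 2.4% as lower. The 10 members made up 22.7% of those tested. Over the members, library 2 exceeded library 1 by a median of 0.39 on the log2 scale, and the median over all genes tested was −0.04. Among genes at 1 CPM or more in both libraries, 7 of 37 members were called (18.9%), against 1.73% of 13566 genes. Counting smaller differences with an adjusted p under 0.05, 24 members were higher in library 2 and 4 were lower, against 13.4% and 19.0% of all genes. The 4 lower members were Stat5b, Socs2, Socs3 and Eif2ak2. The members were chosen with earlier results of these data known, so these shares only describe the list. Both libraries carry the same group label, so no condition is compared here, and in bulk RNA more cells of a type and more RNA per cell cannot be told apart.

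**Figure D2:**
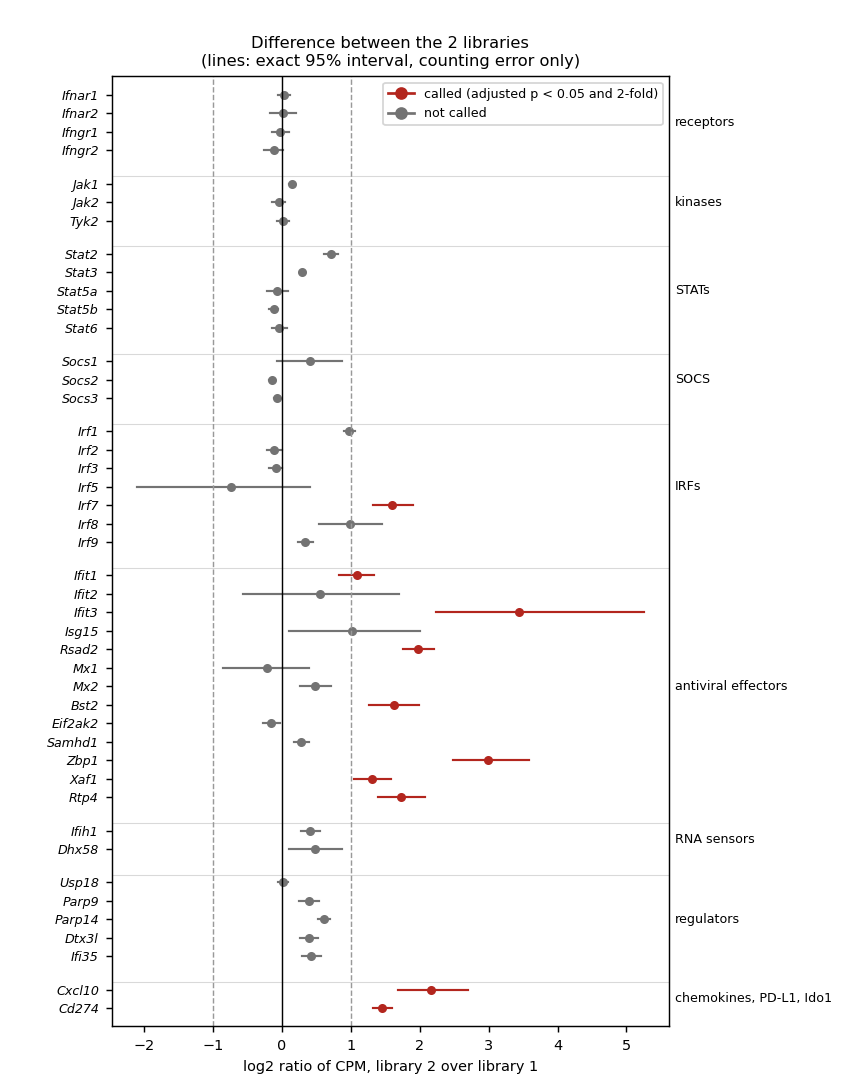
Log2 ratio of CPM, library 2 over library 1, for the 44 members tested, grouped by role, with exact 95% intervals as lines; red marks the 10 called members and dashed lines mark 2-fold. Receptors and kinases lie between −0.12 and 0.14, and all called members lie to the right among IRFs, effectors, chemokines and Cd274.

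Among the IRF factors, Irf7 was called. Irf7, the amplifier of type I interferon production, stood at 2.93 and 8.92 CPM in libraries 1 and 2, from 147 and 348 reads. The ratio was 3.04 (interval 2.50 to 3.71; adjusted p = 4.8e-31, exact binomial test). Irf1, an early target of interferon gamma and an activator of antiviral genes, was the most abundant IRF member, at 45.5 and 89.5 CPM. Its ratio of 1.97 (interval 1.87 to 2.07) lay just under the 2-fold limit. The binomial test with scaling by edgeR's TMM factors called Irf1, at a log2 ratio of 1.02. With edgeR's exact test it was not called (adjusted p = 0.40). Irf8, known mainly from myeloid and B cells, had 1.36 and 2.69 CPM, a ratio of 1.98 (interval 1.45 to 2.73). It was called with TMM scaling at a log2 ratio of 1.03, but not with edgeR's exact test (adjusted p = 0.69). Irf9, the DNA-binding part of the type I complex, had 30.3 and 38.4 CPM.

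Irf3, which is activated by phosphorylation after nucleic acid sensing, and Irf2, an antagonist of Irf1, were nearly level. Irf3 had 42.8 and 40.1 CPM and Irf2 had 34.0 and 31.4 CPM. Irf1 exceeded Irf2 2.49-fold in library 1 and 5.30-fold in library 2 per length. Irf5, a factor of myeloid cells, was barely detected, with 20 and 9 reads.

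The antiviral effectors held most of the called genes, 7 of 13. Zbp1, a sensor of Z-form nucleic acids that can trigger cell death, had 0.658 and 5.31 CPM in libraries 1 and 2, from 33 and 207 reads. The ratio was 7.96 (interval 5.56 to 12; adjusted p = 7.2e-41, exact binomial test). Rsad2 (viperin), which makes a chain-terminating nucleotide, had 4.19 and 16.5 CPM, a ratio of 3.93 (interval 3.36 to 4.62; adjusted p = 1.4e-76, exact binomial test). These genes were therefore present in library 1 at a low level and clearly higher in library 2, well beyond counting error.

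Bst2 (tetherin), which holds budding virus at the cell surface, had 1.82 and 5.59 CPM, a ratio of 3.07 (interval 2.40 to 3.98). Rtp4, a receptor chaperone with antiviral activity, had 2.02 and 6.69 CPM, a ratio of 3.31 (interval 2.63 to 4.22). Xaf1, an antagonist of the apoptosis inhibitor XIAP, had 3.53 and 8.72 CPM, a ratio of 2.47 (interval 2.05 to 2.98). The count of Rtp4 is less certain, since 11.6% of its 50-base words occur in the overlapping gene model Gm45338 and others.

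The Ifit genes encode proteins that bind foreign RNA, and Ifit2, Ifit3 and Ifit1 lie in a row on chromosome 19. Ifit1 had 4.19 and 8.87 CPM in libraries 1 and 2, a ratio of 2.12 (interval 1.78 to 2.53). Ifit3 rested on few reads, 5 in library 1 and 46 in library 2, a ratio of 10.9 with a wide interval from 4.72 to 38.1 (adjusted p = 6.5e-11, exact binomial test). Its count is uncertain, since 51.2% of its 50-base words occur in other genes, mostly the copy Ifit3b. Ifit3b itself had 18 and 33 reads, a ratio of 2.33 (interval 1.29 to 4.44). Of the 50-base words of Ifit1, 7.1% occur in other genes, the most in Ifit1bl2. Ifit1bl2 had 26 and 7 reads, a ratio of 0.364 (interval 0.127 to 0.818), and was called lower in library 2. Neither Ifit3b nor Ifit1bl2 was called with edgeR's exact test, described below. Ifit2 had 14 and 16 reads, a ratio of 1.46 with an interval from 0.672 to 3.25 that spans equality.

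Besides Ifit2, 5 effectors were not called. Isg15, a ubiquitin-like modifier, had only 17 and 27 reads, a ratio of 2.02 (interval 1.07 to 3.99; adjusted p = 0.065, exact binomial test). Mx2 had 6.16 and 8.61 CPM and Mx1 had 1.14 and 0.974 CPM. Mx genes encode dynamin-like GTPases that trap viral nucleoproteins, and the annotation lists Mx2 as a polymorphic pseudogene. Eif2ak2, the RNA-activated kinase PKR, and Samhd1, a nucleotide hydrolase that starves viral replication, were abundant and close in both libraries, at 27.2 and 24.4 CPM and at 30.2 and 36.6 CPM.

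The cytoplasmic RNA sensors were higher in library 2 by less than 2-fold. Ifih1 (MDA5), which senses long double-stranded RNA, had 17.6 and 23.3 CPM, a ratio of 1.33 (interval 1.21 to 1.46). Its relative Dhx58 (LGP2) had 2.27 and 3.18 CPM, a ratio of 1.40 (interval 1.08 to 1.82). Neither sensor passed edgeR's exact test, described below.

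Of the 5 regulators of the response, Usp18 was level and the others were higher in library 2 by less than 2-fold. Usp18, which removes Isg15 from proteins and blocks the type I receptor, was the highest of these at 62.0 and 62.5 CPM in libraries 1 and 2. Its ratio was 1.01 (interval 0.956 to 1.06). Parp14, a mono-ADP-ribosyltransferase, had 39.8 and 60.4 CPM, a ratio of 1.52 (interval 1.43 to 1.61). Ifi35, an interferon-induced protein, had 16.5 and 22.2 CPM, a ratio of 1.34. None of the 5 regulators passed edgeR's exact test, described below.

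Parp9 and Dtx3l, whose proteins act as a pair, start from facing strands on chromosome 16 and overlap there by 682 bases. Their levels were almost identical per length: the ratio of Dtx3l to Parp9 in TPM was 1.0 in both libraries. Both had a log2 ratio of 0.39 between the libraries, with 16.0 and 21.0 CPM for Parp9 and 18.8 and 24.7 CPM for Dtx3l. Strand was not marked by the library kit, so reads of their overlap, 9.40% of the exonic bases of Parp9, cannot be assigned to either gene.

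Genes that act on lymphocytes were led by Cd274, which encodes the checkpoint ligand PD-L1. Cd274 had 11.8 and 32.5 CPM in libraries 1 and 2, from 593 and 1267 reads, a ratio of 2.74 (interval 2.49 to 3.03; adjusted p = 2.4e-97, exact binomial test). It was the most abundant of the 10 called members. An antisense gene model covers 14.1% of its exonic bases, whose reads cannot be told apart. Its neighbour Jak2, 54.4 kb upstream, was level. Cxcl10, a chemokine that attracts activated T cells, had 0.878 and 3.97 CPM, a ratio of 4.49 (interval 3.22 to 6.48; adjusted p = 3.7e-21, exact binomial test). Its neighbour Cxcl9 and the tryptophan-degrading enzyme Ido1 both stayed at 0.0399 and 0.103 CPM.

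**Figure D3:**
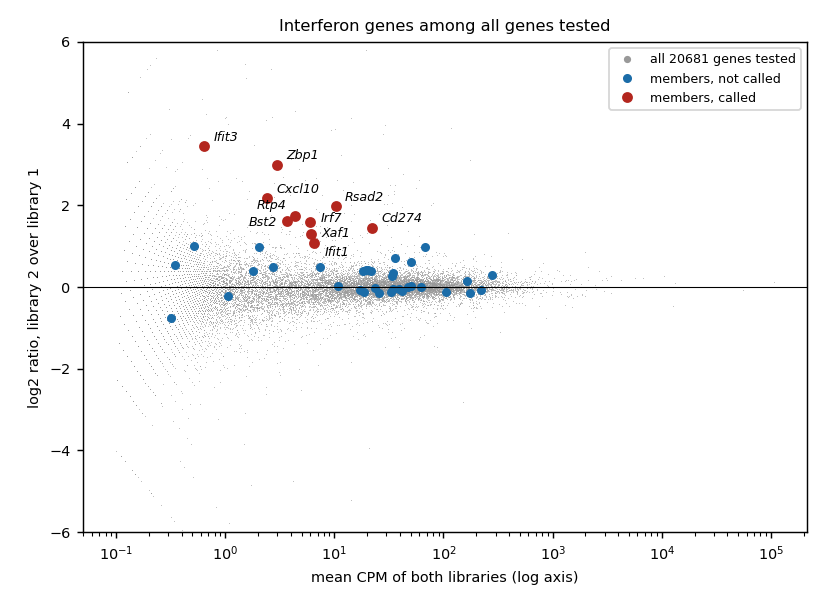
Log2 ratio of library 2 over library 1 against mean CPM (log axis) for all 20681 genes tested (grey points; 23 lie beyond the axis at 6), with the 44 members tested in colour. The 10 called members (red), mostly between 1 and 30 CPM, lie above most grey points at their level. Of all genes tested, 1.91% were called higher in library 2 by the same rule. Most other members (blue) lie within the grey cloud.

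The spread of all genes between these libraries was also used as a yardstick, with edgeR's exact test and a common dispersion of 0.0327 fitted to both libraries as 1 group. By this stricter test 8 members were called, all higher in library 2, against 1.03% of all genes in either direction and 0.629% as higher. They were Irf7, Ifit3, Rsad2, Bst2, Zbp1, Rtp4, Cxcl10 and Cd274. Their adjusted p in edgeR's exact test ran from 3.9e-08 (Zbp1) to 0.018 (Cd274). The calls of Ifit1 (adjusted p = 0.32) and Xaf1 (adjusted p = 0.094) were lost with edgeR's exact test.

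ISRE matches were seen in 13 of the 36 members with a promoter window, and in 9.76% of the 27025 genes of the promoter table. They were present in 6 of the 8 called members with a window and in 7 of the 28 other members. The 2 called members with no match were Irf7 and Xaf1. GAS matches were found in 11 of 36 members and in 9.55% of all genes. Only 1 called member, Bst2, held one, along with 10 of the other 28. These shares were not tested, and a match of letters does not show binding. Some members with a match were not called, such as Eif2ak2, which has overlapping ISRE matches just after its start, and Ifnar1 and Socs3, each with a GAS match.

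**Figure D4:**
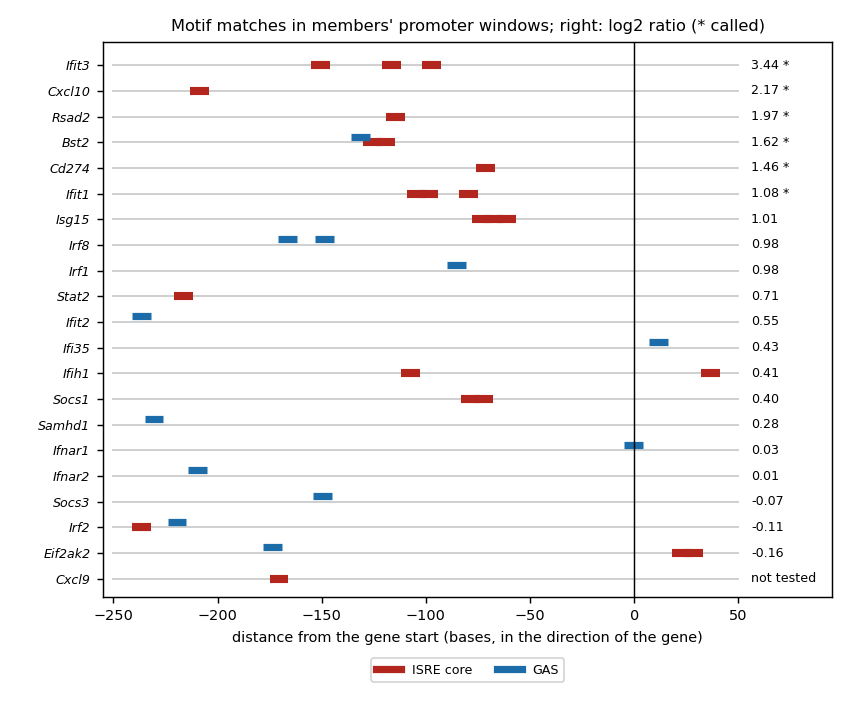
ISRE (red) and GAS (blue) matches in the promoter windows of members that hold at least 1, from 250 bases before to 50 after the start; rows are ordered by log2 ratio, printed at the right with a star for called members. By this order the 6 called members stand at the top, each with an ISRE match before the start. Not shown are the called Irf7 and Xaf1, which had no match, and Zbp1 and Rtp4, which had no window.

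Other genes of the pathway were taken from a separate list, also chosen with earlier results of these data known. It held 96 genes, of which 75 were tested. Of these, 9 were called higher in library 2 (12% of those tested) and 0 lower, against 1.91% and 2.4% of all genes. The median log2 ratio was 0.08. With edgeR's exact test 3 were called, among them Nlrc5, against 1.03% of all genes in either direction. Nlrc5, an activator of MHC class I genes, differed most of those at 1 CPM or more, with 2.73 and 12.8 CPM, a ratio of 4.67 (interval 3.87 to 5.70).

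Uba7, the activating enzyme for Isg15, had 5.49 and 11.1 CPM. Ube2l6, a conjugating enzyme for Isg15, had 4.27 and 9.61 CPM, and the ligase Herc6 had 2.87 and 6.72 CPM. Their ratios lay between 2.02 and 2.33. Also called were Oasl2 (7.16 and 17.7 CPM), the helicase Ddx60 (8.94 and 20.1 CPM) and the death ligand Tnfsf10 (10.2 and 24.2 CPM). All 6 of these calls were lost with edgeR's exact test, with adjusted p from 0.067 for Oasl2 to 0.40 for Uba7. For the 22 receptor-proximal genes of this list that were tested, the median log2 ratio was −0.03, with 9 ratios above 1 and 13 below.

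Interferon genes themselves were nearly silent. Of 12 ligand genes, 6 had no read in either library, among them Ifnb1 and Ifng, below the limit of 3 reads, 0.0599 and 0.0769 CPM. The most reads were those of Ifnk, 14 and 4.

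Summed markers of immune, endothelial, mesenchymal and other endocrine cells were lower in library 2, and those of acinar and ductal cells were higher. T and NK cell markers, 12 in all, summed to 3.59 and 2.72 CPM in libraries 1 and 2, mostly Lck, and Cd3d, Cd8a and Gzmb had no read in either library. Macrophage markers (2 of 12 at 1 CPM in both) summed to 48.5 and 40.1 CPM, mostly C1qa at 39.1 and 35.3 CPM. C1qb had only 0.419 and 0.282 CPM, and C1qc 0.339 and 0.128 CPM. All 11 macrophage markers tested had ratios under 1 (median 0.511), and 3 were called lower in library 2. Endothelial markers (6 of 10) summed to 32.7 and 24.5 CPM, mesenchymal markers (5 of 9) to 16.6 and 10.9 CPM and B cell markers (0 of 5) to 1.70 and 0.846 CPM. Of these, 1 endothelial, 2 mesenchymal and 1 B cell marker were called lower, against 2.4% of all genes. None of the markers called lower passed edgeR's exact test. Single markers went against these sums, such as the endothelial Kdr at 1.64 and 2.49 CPM. Markers of alpha, delta and PP cells (6 of 6) summed to 2627 and 2324 CPM, with Gcg at 462 and 330 CPM, Sst at 1515 and 1100 CPM and Ppy higher in library 2, at 632 and 879 CPM. The ductal markers (5 of 6) summed to 850 and 1190 CPM, mostly Spp1. Of the ductal markers 0 were called, and Cftr was level at 19.5 and 19.8 CPM. Krt19 differed most of them, at 2.17 and 4.23 CPM, a ratio of 1.94. Sox9 had 0.479 and 0.718 CPM. Acinar transcripts, Xist and, by less than 2-fold, ductal transcripts were higher in the same library as the 10 called members. Their part in the difference was not tested.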

How the data were processed

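RNA was sequenced from 2 libraries of sorted mutant beta cells, which formed 1 group. Per the submitters' processing notes, cutadapt 2.10, STAR 2.7.8a and featureCounts 2.0.2 were used with build GRCm38.p6, and their parameters, strand setting and treatment of reads matching several places are not given. The deposited tables hold a raw read count, a TPM value and a CPM value per gene, per the file headers. The deposited CPM equals the count divided by the library total. The deposited TPM implies gene lengths within 1% of the merged exons of GENCODE M21 for 98.3% of 16229 genes in library 1 and 98.4% of 15318 in library 2.

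Each gene with 10 or more reads summed was compared with the share given by the library totals in a binomial test, exact and two-sided (scipy 1.17.1), with Benjamini-Hochberg adjustment over all 20681 genes. Ratios had 0.5 read added to each count. A gene was called at an adjusted p under 0.05 and 2-fold or more. Ratio intervals are exact Clopper-Pearson intervals at 95%. edgeR 4.0.16 (exact test, TMM) and DESeq2 1.42.0 (size factors) gave alternatives. edgeR's quasi-likelihood test needs a second group and was not run. Test scripts were tested on simulated counts with counting error only. That check does not cover the wider spread of the real counts. Coordinates, exon overlaps and 50-base words shared between transcripts came from GENCODE M21 (GRCm38), and promoter windows from RefSeq on GRCm38.p6.

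The members and lists were chosen with earlier results of these data known. All 46 members are named or counted. Of the other pathway genes, those called with a mean of 1 CPM or more are named, apart from 1 that is counted but not reported here.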

Additional observations from a re-analysis of the deposited data

How the results depend on the processing

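The count of 10 called members became 12 with edgeR's TMM factors (Irf1 and Irf8 added), 13 with DESeq2's size factors (Isg15 added as well), 10 with no filter beyond 1 read or with 2 reads added, 14 at 1.5-fold and 8 with edgeR's exact test, and no setting called a member lower in library 2. The median log2 ratio of the members ranged from 0.39 to 0.44 over the scalings, the filter and the reads added. Under TMM and size factors, small uncalled ratios changed sign for Ifngr1 (log2 0.0188 and 0.02) and Stat6 (0.0026 and 0.0038). The count of 9 other pathway genes called fell to 3 with edgeR's exact test, which adds the spread of all genes to the counting error. Over all genes, 892 calls (4.31%) became 1664 (8.05%) at 1.5-fold and 213 (1.03%) with edgeR's exact test. The share was 4.18% with TMM factors, 4.17% with size factors or 2 reads added and 2.39% with no filter beyond 1 read. The alternatives on the other pathway genes were chosen after seeing the data. Detection counted 37 members at 1 CPM, 40 at 0.5 CPM, 28 at 5 CPM and 38 at 1 TPM. Leaving out a library gave 38 to 40 members detected and a median of 9.02 to 11.6 TPM. No ratio between the libraries can be computed with 1 library left out. Depth limits Ifit2, Ifit3, Isg15, Irf5, Cxcl9 and Ido1, each with at most 46 reads in a library. No paired analysis was possible because all samples form 1 group.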
